A study of Mus musculus with 8 samples.

Results

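Branched-chain amino acid (BCAA) catabolism was followed in brown adipose tissue (BAT) through 10 genes, Slc25a44, Bcat2, Bckdha, Bckdhb, Dbt, Bckdk, Ivd, Mccc1, Aldh6a1 and Pcca. They were taken by symbol from the deposited table, which lists 49452 genes, and each matched 1 row. Values are FPKM (fragments scaled to transcript length and to the library's mapped fragments), so levels of different genes can be set side by side. BAT of male C57BL/6 mice was sampled in 4 groups of 2 libraries. Mice aged 10 to 12 weeks were kept at 22 °C (replicates 4 and 7) or at 4 °C for 24 h (replicates 2 and 11). Mice aged 32 weeks had been fed for 28 weeks with a diet labelled normal chow (NCD, replicates 6 and 8) or with a high-fat diet (HFD, replicates 2 and 6). The study's methods call the NCD food a control diet, and describe a fast that closed the cold exposure, without saying if it also applied to the 22 °C group. The labels do not say that libraries came from separate animals, so p-values measure the spread between these libraries.

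Leucine, isoleucine and valine are taken up by the cell, carried into mitochondria, and stripped of their amino group by a transaminase. The branched-chain α-keto acid dehydrogenase (BCKDH) complex then commits the keto acids to oxidation, and it is switched off by a kinase and on again by a phosphatase. Further enzymes turn leucine into acetyl-CoA and ketone bodies, and valine and isoleucine into propionyl-CoA, which enters the tricarboxylic acid (TCA) cycle. Brown fat is known to use BCAAs as a fuel during thermogenesis.

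The tissue label was borne out by the markers. Ucp1, the uncoupling protein that defines brown adipocytes, lay between 699 FPKM at 22 °C and 6462 FPKM at 4 °C, and 7 of 7 brown adipocyte markers were above 0 in every library. The libraries also stood apart in ways that crossed or followed the groups. In 1 library of each group, the satellite-repeat gene Gm10800 was above 100 FPKM (22 °C replicate 4, 4 °C replicate 11, NCD replicate 8 and HFD replicate 2), and these are called satellite-high here and the others satellite-low. The summed level of 11 skeletal muscle markers, from Ckm to Actn3, was 117 to 569 FPKM at 22 °C, 1981 to 4561 FPKM at 4 °C, 576 to 1525 FPKM on NCD and 15.5 to 185 FPKM on HFD, with no marker at 0. Of these markers, 11 of 11 had both 4 °C libraries above both 22 °C libraries (37.9% of all genes tested). On HFD, 10 of 11 had both libraries below both NCD libraries (5.8% of all genes tested). Summed macrophage markers (6 genes, none at 0) ran from 187 to 239 FPKM on HFD and from 38.9 to 108 FPKM on NCD. Summed white adipocyte markers (4 genes, of which Wt1 and Hoxc9 were at or near 0 in every library) ran from 150.5 to 154 FPKM on HFD, 3.73 to 8.21 FPKM on NCD, 28.3 to 49.6 FPKM at 22 °C and 8.11 to 9.27 FPKM at 4 °C. On HFD and NCD, summed endothelial markers (4 genes) ran from 71.96 to 79.0 and from 44.7 to 52.6 FPKM, and summed erythroid markers (3 genes) from 194.5 to 392.5 and from 99.6 to 156 FPKM. Taken singly, 6 of 6 macrophage markers and the 2 white adipocyte markers tested had both HFD libraries above both NCD libraries, as did 39.9% of all genes tested. So did 2 of 4 endothelial markers (Pecam1 and Tie1) and 1 of the 2 erythroid markers tested (Hba-a1), which is near that share. In bulk tissue, fewer cells of a type and less RNA per cell cannot be told apart. All X-linked genes were listed at 0 in 3 libraries, which are both 22 °C libraries and NCD replicate 6, and in none of the others. This difference in the deposited table coincides with the groups of the cold comparison and divides the NCD libraries. The tests covered autosomes only, which hold all 10 genes, and its part in the results was not tested.

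The positions below are those of the deposited table on the mouse assembly GRCm38, and each gene spans its exons, introns and untranslated ends. Slc25a44 lies at chr3:88410498-88425139 on the minus strand and Bcat2 at chr7:45570153-45589711 on the plus strand. The BCKDH genes are spread over 3 chromosomes, with Bckdha at chr7:25629946-25658981 (minus), Bckdhb at chr9:83925145-84124240 (plus), Dbt at chr3:116513070-116549981 (plus) and Bckdk at chr7:127904082-127910221 (plus). Ivd lies at chr2:118861954-118882909 (plus) and Mccc1 at chr3:35959312-36000678 (minus). Aldh6a1 lies at chr12:84430723-84450950 (minus) and Pcca, the longest of the 10 at 356.8 kb, at chr14:122534324-122891100 (plus). Protein-coding or antisense genes on the opposite strand overlap Bcat2 (0610005C13Rik), Bckdha (B3gnt8), Bckdhb (Gm46124), Mccc1 (Mccc1os), Aldh6a1 (Bbof1) and Pcca (Ggact). The library kit keeps strand, but whether the FPKM were computed by strand is not stated, so reads of these partners may be mixed.

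The balance between the BCKDH complex and its kinase is the pattern described most closely below, and the 250 bases before the RefSeq start of 2 complex genes and of the kinase gene are shown for that reason. The sequences are from RefSeq on GRCm38.p6 and read 5′ to 3′ on the gene's own strand. Capitals mark the letters CCAAT and GGGCGG and their reverse complements ATTGG and CCGCCC. The windows are chr7:25658762-25659011 (minus strand) for Bckdha, chr9:83924887-83925136 (plus strand) for Bckdhb and chr7:127903823-127904072 (plus strand) for Bckdk.
Bckdha: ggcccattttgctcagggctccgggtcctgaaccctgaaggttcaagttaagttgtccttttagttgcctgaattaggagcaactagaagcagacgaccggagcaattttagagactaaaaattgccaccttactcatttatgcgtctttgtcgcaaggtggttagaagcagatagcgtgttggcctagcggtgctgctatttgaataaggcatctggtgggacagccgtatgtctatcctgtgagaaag
Bckdhb: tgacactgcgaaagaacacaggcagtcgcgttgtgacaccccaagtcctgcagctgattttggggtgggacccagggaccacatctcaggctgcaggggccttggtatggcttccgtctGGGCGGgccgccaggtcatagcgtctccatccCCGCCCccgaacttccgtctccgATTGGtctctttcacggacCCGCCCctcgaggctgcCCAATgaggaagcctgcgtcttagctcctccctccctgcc
Bckdk: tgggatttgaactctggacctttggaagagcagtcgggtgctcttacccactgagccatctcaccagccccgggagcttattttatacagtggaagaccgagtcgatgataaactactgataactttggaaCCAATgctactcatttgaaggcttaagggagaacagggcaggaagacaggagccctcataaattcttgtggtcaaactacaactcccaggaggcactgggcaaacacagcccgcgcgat
The Bckdha window held neither motif, the Bckdhb window shown held 2 CCAAT and 3 GGGCGG matches, and the Bckdk window held 1 CCAAT match. A second Bckdhb window, at chr9:83948531-83948780 (plus strand), held 0 matches of either motif. Windows were found for 8 of the 10 genes (12 windows, Dbt and Slc25a44 having none). CCAAT, on either strand, occurred in 8 of the 12 windows and in 33.8% of all 32851 windows of this length, and GGGCGG in 3 of 12 and in 32.7% of all. The cAMP response letters TGACGTCA (1.55% of all windows) and the nuclear receptor half-site AAGGTCA (4.08% of all windows) occurred in 0 of 12. A match is a description of letters and not of a bound site.

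BCAA catabolism genes were among the well expressed genes of BAT. Bckdha, the E1α subunit of BCKDH, had the highest mean over the 8 libraries at 158 FPKM, which ranked 237 of 20515 protein-coding genes. Aldh6a1 followed at 129.6 FPKM, and then Ivd at 47.7, Bckdk at 38.4, Bckdhb at 36.5, Dbt at 29.9, Bcat2 at 23.8, Pcca at 21.3, Slc25a44 at 17.3 and Mccc1 at 16.1 FPKM (rank 2075). The step from Aldh6a1 to Ivd held in 8 of 8 libraries, whereas Bckdha was above Aldh6a1 in 6 of 8, and each lower pair of neighbours in this order kept it in only 3 to 6 of 8 libraries. Levels of neighbouring genes below Aldh6a1 therefore did not differ beyond their spread over libraries. Bckdk varied least, its highest library being 1.55 times its lowest, and Bcat2 (6.04 times) and Pcca (5.83 times) varied most. The subunits of 1 complex were not at 1 level, since Bckdha was 2.71 to 7.69 times Bckdhb and 2.28 to 13.98 times Dbt across the 8 libraries.

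**Figure D1:**
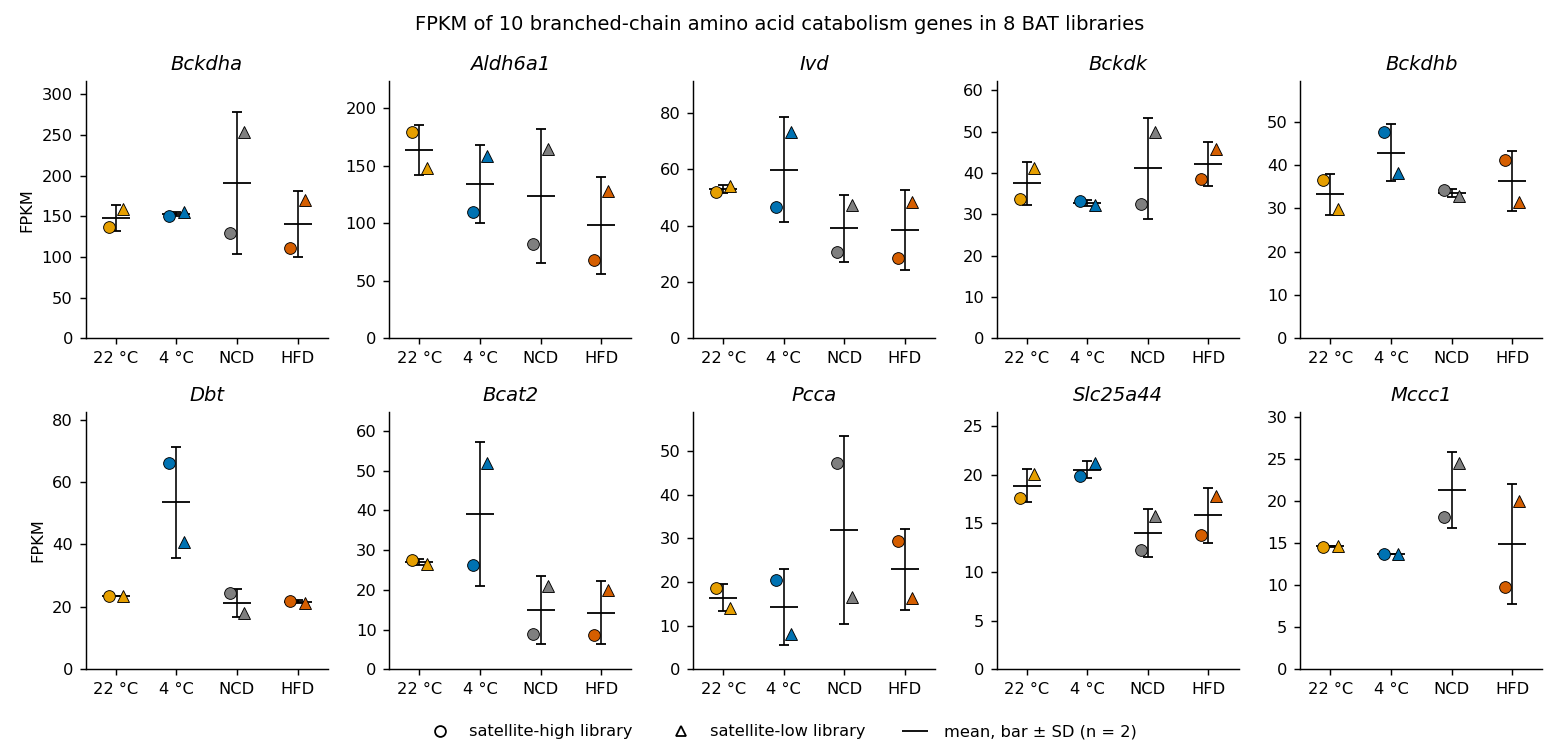
FPKM of each gene (y axis, linear, from 0) in the 8 libraries by group (x axis), ordered by mean level. Circles are satellite-high and triangles satellite-low libraries, and lines give the mean with SD (n = 2). Dbt at 4 °C (40.9 and 66.0 FPKM) stands above all other Dbt values, and most other genes spread as widely within a group as between groups.

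The first comparison asked which of these genes changed in BAT after 24 h at 4 °C. With limma on log2(FPKM + 1), 0 of the 10 genes was past threshold (adjusted p under 0.05 and an absolute log2 fold change of 1 or more), where 1.44% of the 17470 genes tested were (1.22% higher and 0.223% lower). Dbt was the 1 gene with an unadjusted p under 0.05, as were 24.5% of all genes. Both cold libraries lay above both 22 °C libraries for 2 genes, Dbt and Bckdhb, which was true of 37.9% of all genes, and below them for 2 genes, Bckdk and Mccc1, which was true of 20.6%. The median log2 fold change of the 10 genes was 0.09, and that of all genes tested was 0.07 (0.20 for genes averaging 1 FPKM or more). Centring each library on its median gene put the median of the 10 at -0.17 in the cold. It also turned the estimates of Bckdha, Ivd and Slc25a44 from above 0 to -0.21, -0.12 and -0.14.

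Uptake into mitochondria is served by Slc25a44, the mitochondrial BCAA carrier. Its level was 17.7 and 20.1 FPKM at 22 °C and 21.2 and 19.9 FPKM at 4 °C. The groups overlapped, and the log2 fold change was 0.12 (SE 0.19, limma adjusted p = 0.747). Bcat2, the mitochondrial transaminase, was at 27.5 and 26.5 FPKM at 22 °C, and at 51.9 FPKM in 4 °C replicate 2 and 26.2 FPKM in 4 °C replicate 11. Only 1 of the 2 cold libraries was thus above the 22 °C level, with a log2 fold change of 0.44 (SE 0.35, limma adjusted p = 0.484).

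Within BCKDH, the estimates of the 3 subunit genes ran from 0.05 to 1.11, and whether they differ was not tested. Bckdha had 136 and 159 FPKM at 22 °C and 155 and 151 FPKM at 4 °C, so that the cold values lay between the others (log2 fold change 0.05, SE 0.25, limma adjusted p = 0.919). Bckdhb, the E1β subunit, had 36.7 and 30.0 FPKM at 22 °C and 38.3 and 47.5 FPKM at 4 °C. The groups were separate by a narrow gap, and the log2 fold change was 0.35 (SE 0.23, limma adjusted p = 0.402), which turned to -0.14 with quantile normalization and -0.055 after rescaling to the autosomal sum. Dbt, the E2 core that transfers the acyl group, had 23.5 and 23.5 FPKM at 22 °C and 40.9 and 66.0 FPKM at 4 °C. Both cold libraries were well above, yet differed between themselves, with means of 23.5 ± 0.0670 and 53.4 ± 17.7 FPKM (SD, n = 2). The log2 fold change of Dbt was 1.11 (SE 0.28) and missed the threshold (limma, adjusted p = 0.0983, and 0.0519 to 0.592 over 16 alternatives). The estimate was 0.65 with quantile normalization, 0.71 after rescaling to the autosomal sum, 0.86 with median centring and 0.77 without 4 °C replicate 11. With the skeletal muscle score as a covariate over the 8 libraries, the log2 fold change of Dbt was 1.11 (limma, adjusted p = 0.346). That score was higher in the satellite-high library at 22 °C, on NCD and on HFD, and lower at 4 °C. The fit therefore does not separate muscle from library type.

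The kinase Bckdk, which phosphorylates and inactivates E1, had 33.8 and 41.2 FPKM at 22 °C and 32.2 and 33.2 FPKM at 4 °C. The cold values lay just below the lower 22 °C value (log2 fold change -0.19, SE 0.21, limma adjusted p = 0.634), and the estimate turned to 0.29 with the skeletal muscle score as a covariate over the 8 libraries. The ratio of Bckdk to the mean of Bckdha, Bckdhb and Dbt was 0.515 and 0.582 at 22 °C and 0.412 and 0.377 at 4 °C, a difference of -0.47 on the log2 scale. The groups did not overlap for the ratio to each subunit alone either. Bckdk over Bckdha was 0.247 and 0.259 at 22 °C and 0.208 and 0.220 at 4 °C, Bckdk over Bckdhb fell from a mean of 1.15 to 0.769, and Bckdk over Dbt from 1.60 to 0.645. An exact two-sided permutation test of 2 against 2 libraries cannot go below p = 0.333, and the ratios are given as descriptions with no test.

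Ppm1k, the phosphatase that reactivates the complex and no member of the 10, had 10.02 and 9.19 FPKM at 22 °C and 14.4 and 17.9 FPKM at 4 °C. The cold libraries were higher in both cases, with a log2 fold change of 0.69 (SE 0.20, limma adjusted p = 0.128). Ppm1k over Bckdk was accordingly 0.297 and 0.223 at 22 °C and 0.446 and 0.540 at 4 °C. Dld, the E3 subunit that BCKDH shares with other dehydrogenase complexes, had a log2 fold change of 0.72 (limma, adjusted p = 0.171).

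In the leucine branch, Ivd, which oxidises isovaleryl-CoA, had 52.2 and 54.2 FPKM at 22 °C. At 4 °C it had 73.1 FPKM in replicate 2 and 46.8 FPKM in replicate 11, so that the cold libraries fell on either side of the controls (log2 fold change 0.14, SE 0.28, limma adjusted p = 0.807). Mccc1, the biotin-carrying subunit of methylcrotonyl-CoA carboxylase, had 14.5 and 14.7 FPKM at 22 °C and 13.7 and 13.8 FPKM at 4 °C. The values were the tightest of the 10 genes in the cold experiment, and their difference was small (log2 fold change -0.09, SE 0.18, limma adjusted p = 0.808). Its partner Mccc2 had a log2 fold change of 0.26 (limma, adjusted p = 0.482).

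In the valine and propionyl-CoA branch, neither gene was separated by cold. Aldh6a1, methylmalonate semialdehyde dehydrogenase of valine breakdown, had 179 and 148 FPKM at 22 °C and 158 and 109.9 FPKM at 4 °C (log2 fold change -0.30, SE 0.30, limma adjusted p = 0.572). Pcca, the α subunit of propionyl-CoA carboxylase, had 18.5 and 14.1 FPKM at 22 °C, and 8.10 FPKM in 4 °C replicate 2 and 20.4 FPKM in 4 °C replicate 11. These cold libraries were the lowest and the highest of the 4, and the log2 fold change was -0.30 (SE 0.43, limma adjusted p = 0.711). The direction turned to 0.32 without 4 °C replicate 2. Pccb, the β subunit, had a log2 fold change of 0.02 (limma, adjusted p = 0.976).

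**Figure D2:**
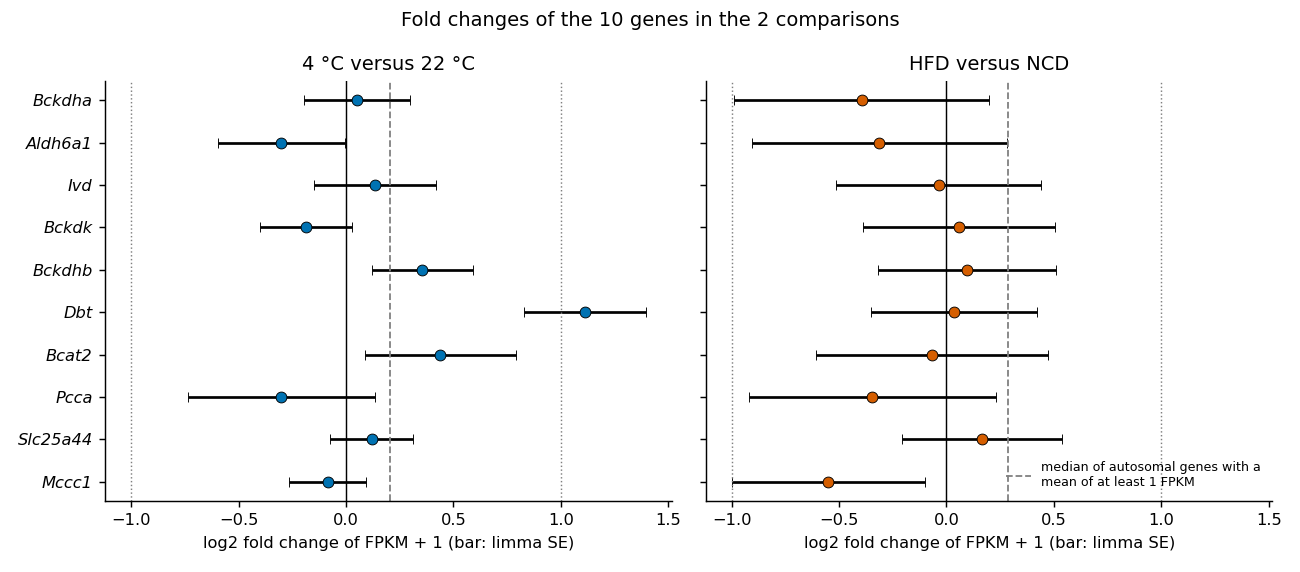
Log2 fold change of FPKM + 1 (x axis) for each of the 10 genes (y axis), 4 °C against 22 °C on the left and HFD against NCD on the right. Points are limma estimates, bars their SE, dotted lines -1 and 1, and the dashed line the median of genes averaging 1 FPKM or more (0.20 and 0.29). On this scale Dbt in the cold (1.11) is the only one of the 20 estimates beyond 1, and it is below 1 with quantile normalization, rescaling and median centring.

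Steps next to these genes in the pathway gave 1 call. Of 19 further enzymes of BCAA breakdown 18 could be tested, the X-linked Hsd17b10 being left out. At 4 °C 1 of the 18 was past threshold, beside 1.44% of all genes tested (1.22% higher). This was Mcee, methylmalonyl-CoA epimerase, which acts just after propionyl-CoA carboxylase. Mcee had 42.0 and 49.6 FPKM at 22 °C and 150.0 and 155 FPKM at 4 °C, with a log2 fold change of 1.72 (SE 0.23, limma adjusted p = 0.0442). Its cold values were far above the others and close together, but the call was lost in 8 of 16 alternatives, among them leaving out 22 °C replicate 4 (adjusted p = 0.107) or either cold library (0.121 and 0.0559). In the list as a whole, 9 of 18 genes had both cold libraries above and 2 below (37.9% and 20.6% of all genes), and the median log2 fold change was 0.22, beside 0.20 for genes averaging 1 FPKM or more.

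The list of BCAA transport and regulation gave 4 calls. Its 9 genes tested were Slc3a2, Slc7a8, Slc43a1, Slc43a2, Slc43a3, Klf15, Sesn2 and the leucyl-tRNA synthetase genes Lars and Lars2. Of these, 4 rose at 4 °C past threshold (1.22% of all genes) and 8 had both cold libraries above (37.9% of all genes). The median log2 fold change was 1.68, which is the estimate of Lars2 (limma, adjusted p = 0.0796). The list was chosen with earlier results of these data known, so the shares of all genes give scale only. Slc43a2, a transporter of large neutral amino acids, went from 2.98 and 5.31 FPKM to 37.6 and 28.4 FPKM (log2 fold change 2.75, SE 0.30, limma adjusted p = 0.0298). Slc3a2, the heavy chain shared by several amino acid exchangers, went from 18.6 and 19.98 FPKM to 96.3 and 63.8 FPKM (log2 fold change 1.97, SE 0.27, limma adjusted p = 0.0442). Slc7a8, a light chain that pairs with Slc3a2, went from 0.677 and 0.288 FPKM to 3.81 and 6.54 FPKM (log2 fold change 2.03, SE 0.28, limma adjusted p = 0.0442, and 3.21 with a pseudocount of 0.1). Klf15, a transcription factor that governs BCAA breakdown in several tissues, went from 12.2 and 8.94 FPKM to 53.8 and 48.2 FPKM (log2 fold change 2.18, SE 0.23, limma adjusted p = 0.0294). For each of these 4 genes the cold libraries were well clear of the 22 °C libraries. The 4 calls were lost without 4 °C replicate 2 (limma adjusted p from 0.109 to 0.121), which left 1 gene past threshold in the whole table, and those of Slc43a2 and Slc7a8 also without 4 °C replicate 11 (0.05002 and 0.0544). With the muscle score as a covariate 0 genes were past threshold by limma in the whole table (2645 at an unadjusted p under 0.05), while the log2 fold changes of these 4 lay between 2.005 and 2.94. Slc7a5, the other chain of the main leucine carrier, was not analysed here.

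Other oxidative lists are given for scale, beside the 37.9% of all genes with both cold libraries above, the 20.6% with both below and the 24.5% with an unadjusted p under 0.05. In the pyruvate and oxoglutarate dehydrogenase list, which holds the complexes built like BCKDH and their kinases, 0 of 11 genes was past threshold by limma (8 with an unadjusted p under 0.05), 9 had both cold libraries above and 1 below, and the median log2 fold change was 0.72. Examples with the largest estimates were Pdk4 (1.62, limma adjusted p = 0.104), Pdhx (1.25, 0.0779), Pdhb (1.22, 0.123) and Dlat (0.89, 0.142). In the TCA cycle list 0 of 14 was past threshold by limma (1 with an unadjusted p under 0.05), 10 had both cold libraries above and 1 below, and the median was 0.30, with Idh3a at 1.69 (limma, adjusted p = 0.0845), Mdh2 at 0.62, Sdhd at 0.60 and Cs at 0.54. In the fatty acid β-oxidation list 0 of 15 was past threshold by limma (2 with an unadjusted p under 0.05), 8 had both cold libraries above and 3 below, and the median was 0.41, with Cpt1b at 0.96 (limma, adjusted p = 0.119), Slc25a20 at 0.79, Hadha at 0.76 and Acadvl at 0.67. The genes with both cold libraries below, named after their values were seen, were Pdk1 (-0.83, limma adjusted p = 0.130), Suclg2 (-0.23, 0.558), Hadh (-0.32, 0.511), Eci1 (-0.21, 0.652) and Acaa2 (-0.18, 0.766). With library type as a covariate Pdhx (limma, adjusted p = 0.0316) and Idh3a (0.0322) were past threshold, in a fit where 859 of the 17470 genes were. The list medians moved with the scaling. Median centring put them at 0.46 for the dehydrogenases, 0.05 for the TCA cycle and 0.15 for β-oxidation, beside -0.03 for the further BCAA enzymes and 1.42 for BCAA transport and regulation. With quantile normalization they were 0.25, -0.18, -0.16, -0.22 and 1.14 in the same order. The higher direction thus held under both for the dehydrogenase and the transport lists only. Whether these lists differ from the 10 BCAA genes was not tested.

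**Figure D3:**
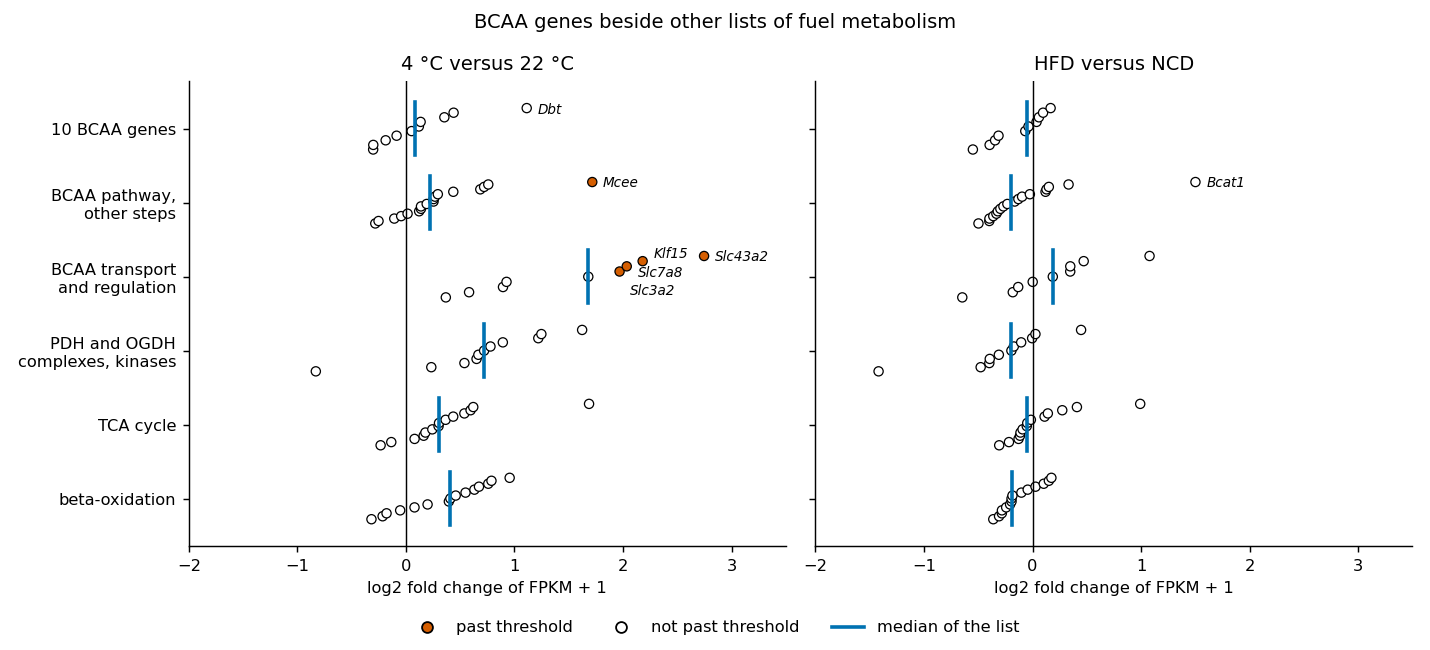
Log2 fold change of FPKM + 1 (x axis) of each gene tested in 6 lists (y axis), 4 °C against 22 °C on the left and HFD against NCD on the right. Filled points are past threshold and blue bars are list medians. In the cold the filled points are Mcee and 4 genes of BCAA transport and regulation, and on HFD there are none.

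The second comparison asked what HFD feeding changed. None of the 10 genes was past threshold (limma, 0 of 10, where 0.0684% of 17535 genes were, 0.0513% higher and 0.0171% lower), and 0 of 10 had an unadjusted p under 0.05, against 14.4% of all genes. The NCD and HFD libraries overlapped for 10 of 10 genes, whereas 39.9% of all genes had both HFD libraries above both NCD libraries and 5.8% had both below. The median log2 fold change was -0.05, where that of all genes tested was 0.18 (0.29 for genes averaging 1 FPKM or more), and median centring put it at -0.41. SEs of the 10 estimates ran from 0.37 to 0.59, against 0.18 to 0.43 in the cold comparison. With library type as a covariate they ran from 0.16 to 0.22 on HFD. In that fit 0 of the 10 genes was past threshold by limma, where 744 of the 17535 genes were. The lowest adjusted p of the 10 by limma was that of Mccc1 at 0.0983.

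By role, Slc25a44 had 15.7 and 12.2 FPKM on NCD and 13.8 and 17.8 FPKM on HFD (log2 fold change 0.17, SE 0.37, limma adjusted p = 0.874). Bcat2 had 21.001 and 8.96 FPKM on NCD and 8.58 and 19.9 FPKM on HFD (log2 fold change -0.07, SE 0.54, limma adjusted p = 0.968). The 2 libraries of either diet thus differed far more than the diets did, and for Bcat2 the low library of each diet was the satellite-high one. Bckdha had 253 and 129.7 FPKM on NCD and 112 and 169.6 FPKM on HFD (log2 fold change -0.40, SE 0.59, limma adjusted p = 0.802). Bckdhb had 32.9 and 34.3 FPKM on NCD and 41.2 and 31.5 FPKM on HFD (0.10, SE 0.41, limma adjusted p = 0.937). Dbt had 18.1 and 24.4 FPKM on NCD and 21.9 and 21.3 FPKM on HFD, the HFD values lying between those on NCD (0.04, SE 0.39, limma adjusted p = 0.976).

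The kinase Bckdk had 49.8 and 32.6 FPKM on NCD and 38.5 and 45.9 FPKM on HFD, again with the HFD values inside the NCD range (log2 fold change 0.06, SE 0.45, limma adjusted p = 0.966). The ratio of Bckdk to the mean of Bckdha, Bckdhb and Dbt was 0.491 and 0.519 on NCD and 0.660 and 0.620 on HFD, a difference of 0.34 on the log2 scale. The ratio was separate between the diets although no single gene was. It rested on Bckdha, the most abundant subunit, since Bckdk over Bckdha was 0.197 and 0.251 on NCD and 0.345 and 0.271 on HFD, while the ratios to Bckdhb and to Dbt overlapped. With the geometric mean of the 3 subunits, which weights them alike, the ratio was 0.936 and 0.683 on NCD and 0.827 and 0.949 on HFD and the diets overlapped. In the cold experiment the geometric mean gave 0.689 and 0.856 at 22 °C and 0.516 and 0.426 at 4 °C, still without overlap. Ppm1k over Bckdk was 0.114 and 0.105 on NCD and 0.0871 and 0.0804 on HFD.

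**Figure D4:**
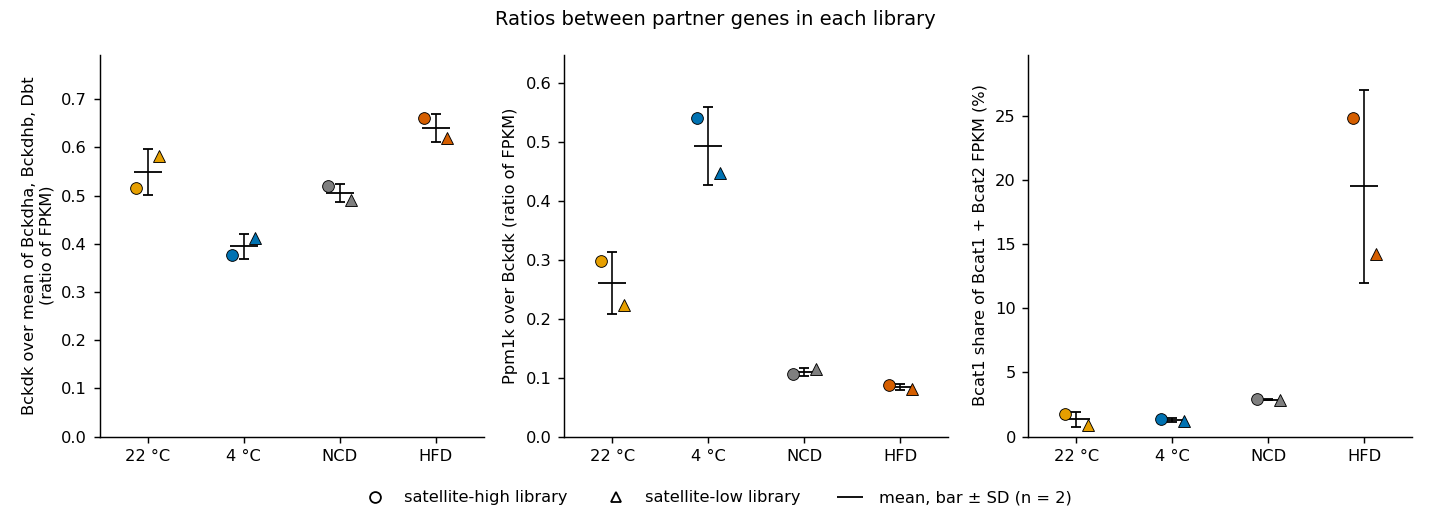
Ratios of FPKM (y axes, linear, from 0) in the 8 libraries by group (x axis), with mean and SD (n = 2): Bckdk over the mean of Bckdha, Bckdhb and Dbt, Ppm1k over Bckdk, and the share of Bcat1 in Bcat1 plus Bcat2. The kinase ratio is 0.377 to 0.412 at 4 °C against 0.515 to 0.582 at 22 °C, and the Bcat1 share is 14.2% and 24.8% on HFD against at most 2.89% elsewhere.

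In the leucine branch, Ivd had 47.5 and 30.8 FPKM on NCD and 28.6 and 48.5 FPKM on HFD (log2 fold change -0.04, SE 0.48, limma adjusted p = 0.980). Mccc1 had 24.5 and 18.1 FPKM on NCD and 9.83 and 19.997 FPKM on HFD. Mccc1 showed the largest diet estimate of the 10 genes at -0.55 (SE 0.45, limma adjusted p = 0.623), and it still overlapped, since HFD replicate 6 was above NCD replicate 8. Aldh6a1 had 165 and 82.1 FPKM on NCD and 68.3 and 128 FPKM on HFD (-0.31, SE 0.59, limma adjusted p = 0.850). Pcca had 16.6 and 47.2 FPKM on NCD and 29.4 and 16.4 FPKM on HFD (-0.34, SE 0.58, limma adjusted p = 0.825). NCD replicate 8 held the highest Pcca value of all 8 libraries, and without it the estimate turned to 0.38. NCD replicate 6 carries a library identifier of another series than NCD replicate 8 and the HFD libraries. This library is also the satellite-low one of NCD. Without it the 10 estimates lay between -1.07 (Pcca) and 0.50 (Bcat2), and those of Bcat2, Bckdha, Dbt, Ivd and Aldh6a1 changed sign. Identifier series and library type cannot be told apart in that fit.

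Outside the 10 genes, 0 of 18 further BCAA enzymes was past threshold on HFD by limma, beside 0.0684% of all genes. By the same test 1 of the 18 had an unadjusted p under 0.05, beside 14.4% of all genes. The median log2 fold change of the list was -0.20, where that of all genes tested was 0.18 (0.29 for genes averaging 1 FPKM or more). The exception at an unadjusted p was Bcat1, the cytosolic transaminase that catalyses the same reaction as Bcat2. Bcat1 had 0.616 and 0.266 FPKM on NCD and 2.83 and 3.28 FPKM on HFD (log2 fold change 1.50, SE 0.23, limma adjusted p = 0.118), and it was past threshold in 6 of 16 alternatives. Among these were the fit with library type as a covariate (1.50, limma adjusted p = 0.00402), where 744 of the 17535 genes were past threshold, and the fit of the 8 libraries together (0.0257), where 75 were. The rest each left out 1 library, so that 1 diet had a single library, and the estimates of Bcat1 there were 1.325 to 1.677. With pseudocounts of 0.1 and 0.5 in place of 1, the estimate of Bcat1 was 2.62 and 1.94. The estimate of Bcat1 was 1.14 with median centring, 1.27 with quantile normalization and 1.46 with the muscle score as a covariate (limma, adjusted p = 0.0648, 0.208 and 0.256). Its share of Bcat1 plus Bcat2 was 2.85% and 2.89% on NCD, 24.8% and 14.2% on HFD, and 0.926% to 1.76% in the cold experiment. Both HFD libraries also had the higher macrophage, white adipocyte, endothelial and erythroid marker sums given above, and the lower skeletal muscle marker sums. The white adipocyte marker Lep, the leptin gene, went from 2.93 and 0.307 FPKM on NCD to 61.7 and 83.5 FPKM on HFD. The part of these cell types in the Bcat1 difference was not tested. Acadsb, the short/branched-chain acyl-CoA dehydrogenase of isoleucine breakdown, had 59.2 and 51.6 FPKM on NCD and 42.4 and 45.0 FPKM on HFD (-0.33, limma adjusted p = 0.765).

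Of the 9 transport and regulation genes, 0 was past threshold on HFD by limma (2 with an unadjusted p under 0.05, against 14.4% of all genes), and 4 had both HFD libraries above, a share near the 39.9% of all genes. The 4 genes were Slc43a3 (log2 fold change 1.08, limma adjusted p = 0.260), Slc7a8 (0.47, 0.184), Lars (0.35, 0.685) and Sesn2 (0.35, 0.678). Klf15 and Slc43a2, which rose in the cold, had diet estimates of -0.13 and 0.00175 with overlapping groups. Among the other lists 0 genes were past threshold by limma on HFD (1 of 11, 0 of 14 and 0 of 15 with an unadjusted p under 0.05 in the dehydrogenase, TCA cycle and β-oxidation lists). Both HFD libraries lay below for 2 of 11 dehydrogenase genes, Pdk1 (-1.42, limma adjusted p = 0.207) and Pdp2 (-0.48, 0.562), and above for 0. In the TCA cycle list both lay above for 2 of 14, Idh2 (0.99, limma adjusted p = 0.475) and Cs (0.41, 0.776), and below for 0. The β-oxidation list had 0 of 15 in either direction. Of all genes, 39.9% had both HFD libraries above and 5.8% both below. With library type as a covariate, Pdk1 (limma, adjusted p = 0.0103) and Slc43a3 (0.0141) were past threshold, in a fit where 744 of the 17535 genes were.

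Within groups, 6 of the 10 genes differed between the library types in 1 direction throughout. Pcca, Bckdhb and Dbt were higher in the satellite-high library in 4 of 4 groups, as were 4.31% of the 10877 genes averaging 1 FPKM or more. For Pcca the difference on the log2(FPKM + 1) scale was 0.37 at 22 °C, 1.24 at 4 °C, 1.45 on NCD and 0.81 on HFD, and for Bckdhb it was 0.06 to 0.38. For Dbt it was 0.0056 at 22 °C, 0.68 at 4 °C, 0.41 on NCD and 0.04 on HFD, and so near 0 in 2 of the 4 groups. Bckdha, Ivd and Slc25a44 were lower in the satellite-high library in 4 of 4 groups, as were 38.6% of genes. Bcat2, Aldh6a1, Mccc1 and Bckdk differed in sign between groups, each with 1 group higher and 3 lower. Pcca and Bckdhb are the genes of the 10 with the longest spans (356.8 and 199.1 kb), and among all genes 5.44% of those spanning at least 100 kb and 4.17% of shorter ones were higher in 4 of 4 groups.

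**Figure D5:**
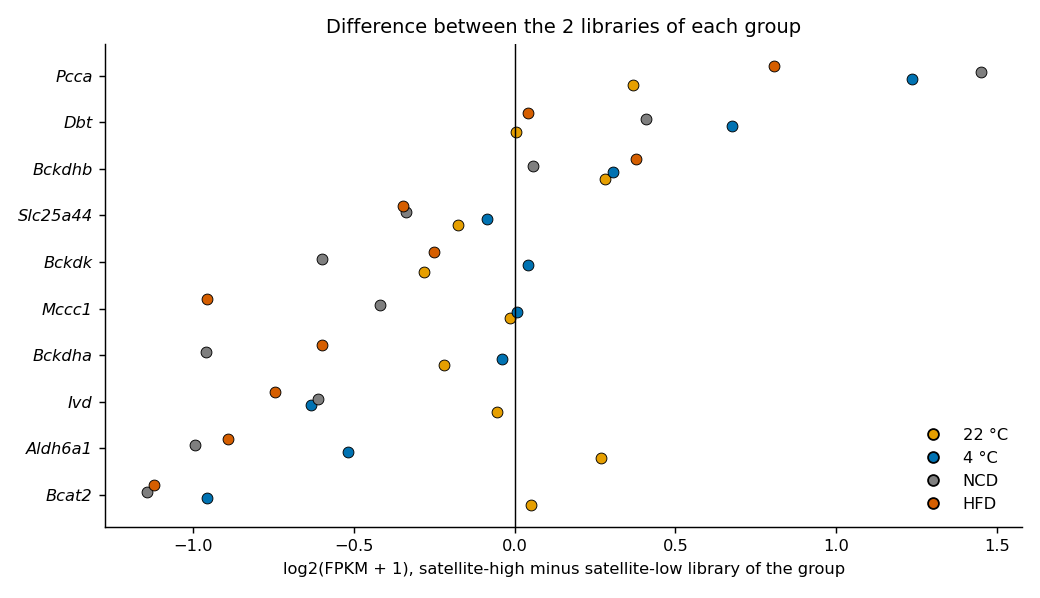
Difference in log2(FPKM + 1) between the satellite-high and the satellite-low library of each group (x axis) for the 10 genes (y axis), 1 point a group. Pcca, Dbt and Bckdhb lie at or above 0 in 4 of 4 groups, and Bcat2, Aldh6a1 and Ivd reach -0.63 or below in 2 or 3 groups.

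Compared only between libraries of the same type, with 1 library a group and no test, cold and 22 °C differed with the same sign in both types for 5 of 10 genes. Bckdhb, Dbt and Slc25a44 were higher and Bckdk and Mccc1 were lower at 4 °C, where 53.6% of the 10877 genes averaging 1 FPKM or more were higher in both types and 19.2% lower. HFD and NCD differed with the same sign in both types for 6 of 10 genes, of which Slc25a44 was higher and Aldh6a1, Bcat2, Bckdha, Mccc1 and Pcca were lower on HFD, beside 67.9% of genes higher and 11.2% lower. The median of the 10 cold differences was 0.05 in satellite-high and 0.08 in satellite-low libraries, and that of the diet differences was -0.12 and -0.07.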

How the data were processed

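RNA of BAT was depleted of ribosomal RNA and made into directional libraries. Per the submitters' processing notes, TopHat2 2.0.10 and Cufflinks 2.2.1 were used with assembly GRCm38.p5. The role of STAR, also named there, is not given in the sources used here, and the study's methods name another Cufflinks version. The deposited table gives the FPKM of each gene in each library, computed by the authors without pooling. DESeq2 was the authors' test on counts not used here.

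Here, log2(FPKM + 1) was tested with limma 3.58.1 in R 4.3.3 (lmFit, eBayes with trend), 2 libraries against 2 without covariates, on autosomal genes that reached 0.1 FPKM in 2 or more of the libraries compared. P-values are two-sided and Benjamini-Hochberg adjusted over all genes tested. Adding 1 understates fold changes of low genes. Tested on simulated data, the fit recovered the fold changes on average, but with 2 libraries a group it called none of the smallest and most of the largest changes in the cold design and none in the diet design, so a lack of calls does not show that a gene did not change. Tables and plots used Python 3.11.15, pandas 2.3.3, NumPy 2.4.6 and Matplotlib 3.10.9.

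The members and lists were chosen with earlier results of these data known. Named are the 10 genes, from other lists the genes past threshold or else up to 4 with the largest change among those without overlap, and genes sharing a step or complex with the 10.

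Between 23543 and 32686 genes were above 0 per library. In genes of low value, 98.1% to 99.1% of values were whole multiples of 1 fragment within 0.1 fragment, and 1 fragment per kb corresponded to 0.00812 to 0.0111 FPKM. By that step the 10 genes held about 1632 (Bcat2, NCD replicate 8) to 73105 fragments (Aldh6a1, 22 °C replicate 4). This covers counting error only, as the fragments carried no molecular identifiers and may stem from the same molecule.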

Additional observations from a re-analysis of the deposited data

How the results depend on the processing

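Replicate numbers gave no pairing, because 22 °C and 4 °C share no number and NCD and HFD share only number 6. Library type, which the data and not the labels give, occurs once of each kind in every group. As a covariate it paired the libraries by type. The muscle score was higher in the satellite-high library of every group but 4 °C, so fits with that score do not separate muscle from library type. None of the 10 genes was past threshold under any of 16 alternatives per comparison. Genes past threshold in all numbered 252 in the cold and 12 on HFD. With quantile normalization they were 508 and 0 (2109 at an unadjusted p under 0.05), with median centring 756 and 45, rescaled to the autosomal sum 529 and 0 (2306), with a filter at 1 FPKM 529 and 24, with no filter 0 (4689) and 0 (2490), with sex-linked and mitochondrial genes kept 920 and 0 (2533), with the 8 libraries in one fit 439 and 75, with library type as covariate 859 and 744, with the muscle score as covariate 0 (2645) and 1, and without intensity trend 0 (4170) and 0 (2348). In the cold, pseudocounts of 0.1 and 0.5 gave 475 and 435. The fit with sex-linked genes kept took in X-linked genes, which were all listed at 0 in both 22 °C libraries but not at 4 °C. Of its 920 cold calls 829 were higher, and the part of these zeros in them was not tested. Leaving out 1 library gave 1 to 766 in the cold, lowest without 4 °C replicate 2, and 99 to 727 on HFD. Of the calls, 84.5% were higher in the cold by the main test, 64.4% with quantile normalization, 65.2% with median centring and 66.7% rescaled, and on HFD 75.0% and 51.1% with median centring.

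The median of the 10 genes in the cold was -0.43 with quantile normalization, -0.17 with median centring, -0.32 rescaled and 0.56 with the muscle score, and -0.01 to 0.16 without 1 library. On HFD it was -0.28, -0.41, -0.20 and -0.52, and -0.29 to 0.13. The log2 difference of the Bckdk ratio with the geometric mean, chosen after seeing the data, was -0.71 in the cold and 0.15 on HFD.

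Estimates that changed sign are log2 fold changes. In the cold, median centring gave Bcat1 -0.14, Bckdha -0.21, Ivd -0.12, Mccc2 -0.0024, Pccb -0.24 and Slc25a44 -0.14. Quantile normalization gave Bcat2 -0.066, Bckdha -0.55, Bckdhb -0.14, Cs -0.047, Ivd -0.41, Mccc2 -0.25, Pccb -0.49 and Slc25a44 -0.31. Rescaling gave Bcat1 -0.033, Bckdha -0.37, Bckdhb -0.055, Ivd -0.28, Mccc2 -0.16, Pccb -0.40 and Slc25a44 -0.28. The muscle score gave Aldh6a1 0.31, Bckdk 0.29 and Mccc1 0.62. On HFD, median centring gave Bckdhb -0.26, Bckdk -0.30, Dbt -0.32, Lars -0.0090, Pccb -0.21, Sesn2 -0.0095 and Slc25a44 -0.19. Quantile normalization gave Bckdhb -0.075, Bckdk -0.10, Dbt -0.21, Pccb -0.013, Sesn2 -0.0040 and Slc25a44 -0.11. Rescaling gave Bckdhb -0.054, Bckdk -0.093, Dbt -0.11 and Pccb -0.0037. The muscle score gave Bckdk -0.45, Pcca 0.54, Pccb -0.56 and Slc25a44 -0.23.

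Leaving out 1 library in the cold, estimates spanned -0.0067 to 0.25 for Bcat1, -0.039 to 0.92 for Bcat2, -0.058 to 0.16 for Bckdha, -0.18 to 0.45 for Ivd, -0.92 to 0.32 for Pcca and -0.061 to 0.092 for Pccb. On HFD they spanned -0.81 to 0.18 for Aldh6a1, -0.64 to 0.50 for Bcat2, -0.87 to 0.085 for Bckdha, -0.092 to 0.29 for Bckdhb, -0.24 to 0.36 for Bckdk, -0.17 to 0.24 for Dbt, -0.41 to 0.34 for Ivd, -0.60 to 0.34 for Mccc2, -1.07 to 0.38 for Pcca, -0.27 to 0.57 for Pccb, -0.56 to 0.029 for Ppm1k and -0.0067 to 0.34 for Slc25a44. An arm of 1 library is assumed to vary like the other. Past threshold in the cold were Klf15 and Slc3a2 in 12 of 16 alternatives, Slc43a2 and Slc7a8 in 11, Mcee in 8, Idh3a in 3 and Pdhx in 1, and on HFD Bcat1 in 6, Pdk1 in 2 and Slc43a3 in 1. The causes were not tested.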

Other observations

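The genes whose profile over the 8 libraries was most like the mean profile of the 10 BCAA genes were Zscan26, Zfp3, Eif2b1, Bag1 and Elac2, with a mean absolute difference of 0.05 to 0.06 on the centred log2(FPKM + 1) scale, where the median over 10870 genes was 0.28. The 10 genes themselves differed from their own mean profile by 0.12 (Slc25a44) to 0.60 (Pcca). Each of them was thus farther from it than the genes just named, and their range held the median over all genes. The summed FPKM of the 10 genes was 539 (replicate 4) and 531 (replicate 7) at 22 °C, 592 and 534 at 4 °C, 644.0 and 420.3 on NCD and 372 and 518 on HFD, and the groups overlapped in both comparisons. Pccb over Pcca, the ratio of the 2 subunits of propionyl-CoA carboxylase, ran from 1.32 (NCD replicate 8) to 11.5 (4 °C replicate 2), whereas Mccc2 over Mccc1 ran from 1.23 (NCD replicate 8) to 3.04 (4 °C replicate 2). Mccc2 over Mccc1 was 2.202 and 2.36 at 22 °C and 3.04 and 2.80 at 4 °C, and 1.78 and 1.23 on NCD and 2.21 and 1.85 on HFD, without overlap in either comparison.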
